A study of Mus musculus with 20 samples.

Results

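The 45 transcripts described here encode the synaptic vesicle and release machinery, the proteins that store neurotransmitter in vesicles, dock and prime the vesicles at the active zone, fuse them with the membrane when calcium enters, and retrieve them afterwards. They were chosen by name, with earlier results of these data known, so the shares of all genes set beside their counts are descriptions. They were matched by Ensembl identifier to 45 of the 46078 genes in the count tables. Every one had enough counts to be tested in each comparison. Bulk RNA sequencing was done on brain tissue of 18-month-old male wild-type C57BL/6J mice, 7 weeks after a stroke made by occluding the distal middle cerebral artery and then keeping the mice in low oxygen (the DH model). All 4 groups shared this genotype, age and injury. Mice received 4 g/kg HPBCD (2-hydroxypropyl-β-cyclodextrin, a cyclic sugar that takes up lipids) or sterile PBS (vehicle) under the skin 3 times per week for 6 weeks, starting 1 week after the stroke. For each treatment there were 5 libraries of the peri-infarct region, the tissue bordering the infarct, and 5 of the matching region of the contralateral hemisphere, 20 libraries in all. The contralateral tissue came from the same stroked mice, so no group was free of injury.

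Vesicles carry synaptic proteins such as synaptophysin, the synapsins and the SV2 glycoproteins, and Rab3 GTPases that guide them to release sites. Fusion is driven by the SNARE proteins on the vesicle (the VAMPs) and on the plasma membrane (Stx1a, Snap25), with complexins as clamps and activators and synaptotagmins as calcium sensors. Scaffolds of the active zone, among them the RIMs, Munc13 proteins, Bassoon and Piccolo, hold vesicles close to calcium channels, and dynamin, amphiphysin, endophilin and synaptojanin retrieve the membrane.

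Libraries held 14445021 to 22171627 counts assigned to genes (median 19008532), at which 3 counts equal 0.135 to 0.208 CPM (a gene's share of its library, scaled to a common total), so depth did not limit any member. The lowest member, Syn3, was above this floor in all 20 libraries. CPM here are scaled by edgeR's TMM factors. A gene was called when edgeR's quasi-likelihood test gave a Benjamini-Hochberg adjusted p under 0.05 over all genes tested. The p-values measure the spread between mice of a group. The main region and interaction fits do not use the pairing of both regions within a mouse. Fits with the animal as a block are given as an alternative. Libraries that stood apart touch members. Vehicle contralateral replicate 1 had a summed level of 8 striatum markers of 3800 CPM, when the other 4 of its group had 220 to 304. HPBCD contralateral replicate 1 lay apart from its group in 4 members (Syt5, Rab3a, Rab3b and Rims3), and HPBCD contralateral replicate 4 had the fewest gene counts and 40.1% of its reads assigned to no gene, when the other 19 had at most 33.7%. The treatment labels are uncertain, and no transcript examined here is a marker of the drug itself. Groups are named by their labels throughout. Every direction between the treatments, and which treatment a region effect belongs to, therefore holds only if the labels do. In bulk tissue, fewer neurons and less RNA per neuron cannot be told apart, and this applies to every result below.

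The starting levels differed widely between members. On a scale of CPM per kilobase of exon, Snap25, a plasma membrane SNARE, led in the vehicle contralateral libraries at 702 ± 62.6 (mean ± SD, n = 5). Cplx2 (376 ± 27.0), Vamp2 (370 ± 27.4), Cplx1 (345 ± 49.7) and Rab3a (320 ± 20.5) followed, well below Snap25, and among these 4 no neighbors differed beyond their spread. Dnm1, the GTPase that cuts vesicles from the membrane, stood at 248 ± 31.1, Syt1, the fast calcium sensor, at 201 ± 24.2, and Syn1, a vesicle-tethering synapsin, at 197 ± 23.8. At the other end were Sv2c (4.15 ± 3.59), Doc2b (3.89 ± 3.62), Unc13c (2.58 ± 1.27) and Syn3 (0.428 ± 0.163). The SDs of Sv2c and Doc2b were close to their means because vehicle contralateral replicate 1 was the highest of its group for both.

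The promoters of the members were read for 4 sets of letters, on both strands, in the window from 250 bases before to 50 bases after each RefSeq start site (GRCm38.p6). A promoter was matched for 34 of 45 members, and not for Syn3, Syngr3, Syt4, Syt5, Syt7, Syt12, Syt13, Snap25, Vamp2, Rims2 and Doc2b. The 4 windows below are given because they belong to a synapsin (Syn1), the member with the smallest p in the region by treatment test (Rph3a, shown by the one of its 3 start-site windows that held the most matches; of the others, 1 held GGACAG alone and 1 held none), an endocytosis gene (Sh3gl2) and the member that fell furthest (Vamp1). Capitals mark CAGCACC and GGACAG (the left and right parts of the site read by the neuronal repressor REST), TGACGTCA with its shorter form TGACGT (the cAMP response element), and GGGCGG (the GC box), each on either strand.
Syn1, chrX:20920869-20921168, minus strand: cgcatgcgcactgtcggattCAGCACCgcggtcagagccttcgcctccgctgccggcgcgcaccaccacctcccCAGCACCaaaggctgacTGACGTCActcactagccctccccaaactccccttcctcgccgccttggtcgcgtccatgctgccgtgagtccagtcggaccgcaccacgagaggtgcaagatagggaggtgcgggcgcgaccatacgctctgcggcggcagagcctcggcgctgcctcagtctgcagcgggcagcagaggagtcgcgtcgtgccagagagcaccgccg
Rph3a, chr5:121009489-121009788, minus strand: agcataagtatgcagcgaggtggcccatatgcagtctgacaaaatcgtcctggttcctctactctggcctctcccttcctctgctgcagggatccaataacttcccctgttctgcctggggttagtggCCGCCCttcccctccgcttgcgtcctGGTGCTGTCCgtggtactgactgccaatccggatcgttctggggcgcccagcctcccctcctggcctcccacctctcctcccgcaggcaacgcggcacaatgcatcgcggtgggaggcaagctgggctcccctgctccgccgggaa
Sh3gl2, chr4:85205206-85205505, plus strand: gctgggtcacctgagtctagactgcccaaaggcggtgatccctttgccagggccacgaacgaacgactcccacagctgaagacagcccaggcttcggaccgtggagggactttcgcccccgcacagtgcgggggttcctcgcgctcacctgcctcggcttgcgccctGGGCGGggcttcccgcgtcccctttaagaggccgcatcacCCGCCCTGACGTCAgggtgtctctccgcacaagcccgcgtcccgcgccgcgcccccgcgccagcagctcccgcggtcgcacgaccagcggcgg
Vamp1, chr6:125215331-125215630, plus strand: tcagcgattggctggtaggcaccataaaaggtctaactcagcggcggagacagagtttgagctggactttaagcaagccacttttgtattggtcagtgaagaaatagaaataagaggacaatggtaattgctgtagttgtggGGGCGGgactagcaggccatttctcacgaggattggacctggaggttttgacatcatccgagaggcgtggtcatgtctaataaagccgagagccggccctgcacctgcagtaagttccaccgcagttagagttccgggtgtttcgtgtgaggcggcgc
A gene with several start-site windows was counted as matching if any of them matched. GGGCGG was found at 27 of the 34 members (79.4%) and at 38.2% of all 27025 genes with a promoter in the table. Both REST parts on the same strand, in any order and at any distance, occurred at 2 members, Rph3a and Unc13a (5.88%, against 1.15% of all genes). In the Rph3a window they overlap by 3 letters with the right part first, so they do not form the left-then-right site. TGACGTCA occurred at Syn1 and Sh3gl2 (5.88%, against 2.03%), and the shorter TGACGT, which lies within it, at these and Rab3a (8.82%, against 8.37%). These matches are descriptions of the sequence and say nothing of factor binding.

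**Figure D1:**
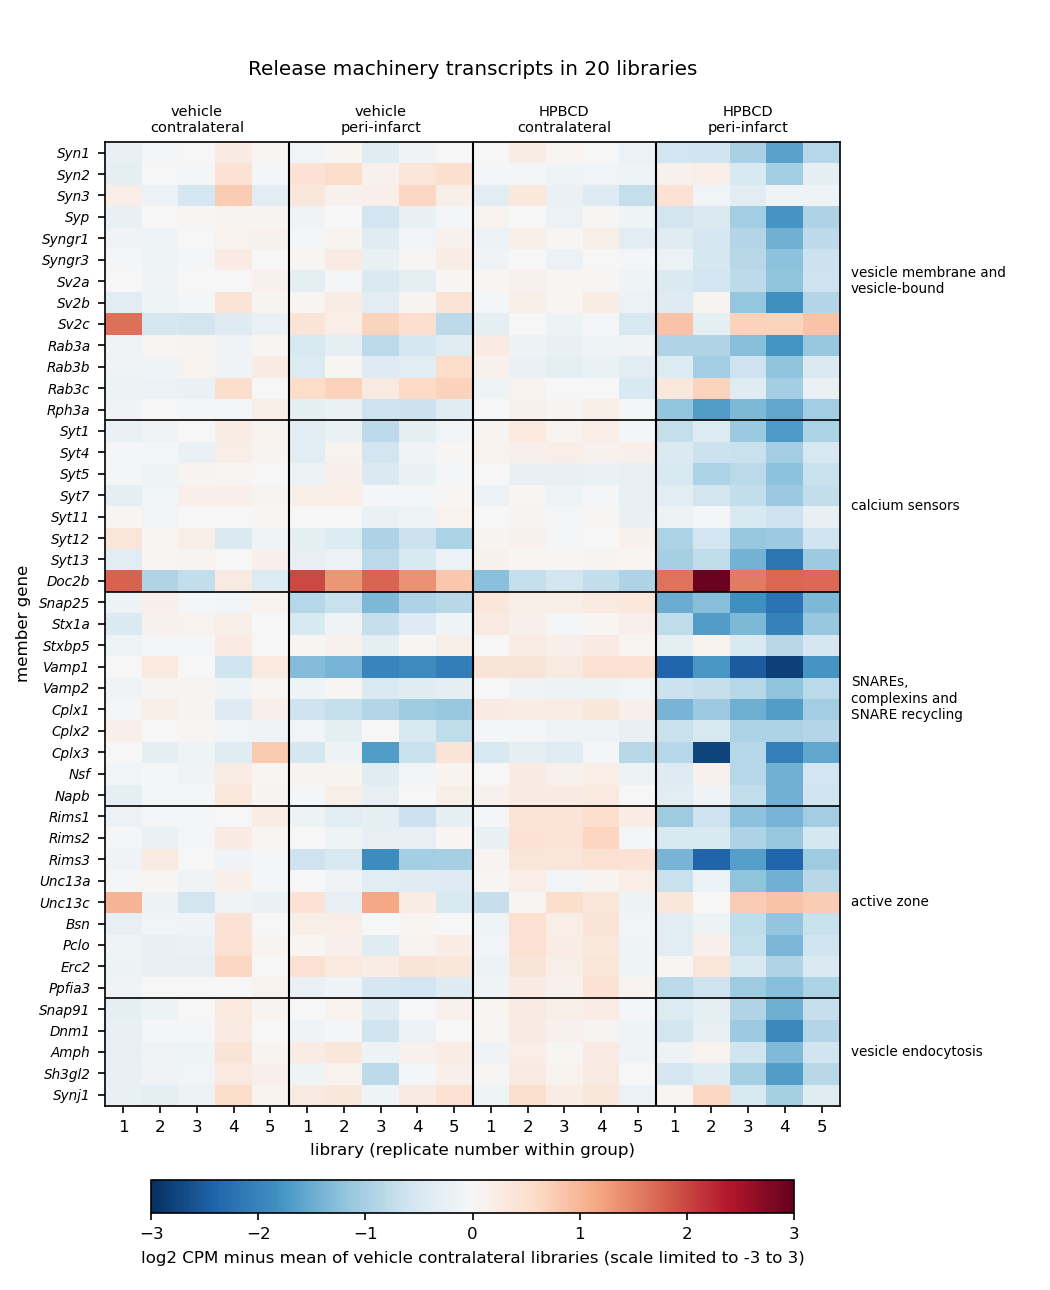
Each row is a member gene grouped by role, each column a library, and the color gives log2 CPM minus the mean log2 CPM of the vehicle contralateral libraries. Most members are blue in the HPBCD peri-infarct libraries, darkest in replicate 4, while Doc2b runs red in both peri-infarct groups and in vehicle contralateral replicate 1.

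The first question was how the release machinery differed between peri-infarct and contralateral tissue of vehicle-treated mice. At an adjusted p under 0.05 by edgeR, 10 of 45 members were lower and 1 was higher. Of all 15801 genes tested, 9.70% were lower and 10.5% higher. The median log2 fold change of the members was -0.12 (all genes, 0.01). The 10 lower members were Vamp1, Rims3, Snap25, Cplx1, Syt12, Rab3a, Rph3a, Syt13, Ppfia3 and Rims1, and the higher one was Rab3c. In 7 of them every peri-infarct library lay below every contralateral one, an arrangement seen for 6.70% of all genes. By role, 3 of 10 SNAREs, complexins and recycling factors fell, as did 3 of 9 active zone genes and 2 of 13 vesicle membrane genes. In the group of synaptotagmins and Doc2b 2 of 8 fell, and none of 5 endocytosis genes did.

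Vamp1 (chr6:125215551-125245964, plus strand), a vesicle SNARE known for fast-releasing terminals, fell furthest. The contralateral libraries held 160, 198, 161, 106 and 198 CPM and the peri-infarct ones 64.9, 60.9, 40.5, 43.4 and 38.1. The groups did not overlap, and the peri-infarct level was 29.9% of the contralateral one (log2 fold change -1.74 ± 0.20 SE, adjusted p = 0.00128, edgeR). Snap25 (chr2:136713453-136782428, plus strand) was at 4300, 5270, 4670, 4460 and 5150 CPM contralaterally and at 2620, 2980, 1860, 2490 and 2690 in the peri-infarct region. It too did not overlap and fell to 52.5% (-0.93 ± 0.12, adjusted p = 0.00146, edgeR). Rims3 (chr4:120854816-120896579, plus strand), a short RIM of the active zone, had 276, 356, 293, 274 and 282 CPM against 193, 216, 79.5, 146 and 147, with replicate 3 the lowest peri-infarct library (-0.94 ± 0.21, adjusted p = 0.0112, edgeR). Cplx1, the complexin of many fast synapses, fell to 53.7% of the contralateral level (-0.90 ± 0.13, adjusted p = 0.00217, edgeR).

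Of the genes followed in every comparison, Syn1, Syp, Syt1 and Dnm1 did not pass the test in these mice. Syn1 was at 550, 620, 651, 766 and 665 CPM contralaterally and 610, 677, 504, 598 and 645 in the peri-infarct region (-0.11 ± 0.10, adjusted p = 0.457, edgeR). Syp, the vesicle membrane protein synaptophysin, had 534, 624, 638, 660 and 659 against 579, 625, 417, 535 and 603 CPM (-0.19 ± 0.11, adjusted p = 0.232, edgeR). In both genes the groups overlapped, with peri-infarct replicate 3 the lowest library. Syt1 had 1440, 1540, 1640, 1950 and 1790 against 1320, 1440, 958, 1390 and 1560 CPM (-0.34 ± 0.13, adjusted p = 0.0752, edgeR). Dnm1 had 1110, 1260, 1270, 1560 and 1310 against 1210, 1250, 854, 1140 and 1290 CPM (-0.19 ± 0.12, adjusted p = 0.273, edgeR). These groups overlapped too, and replicate 3 was again lowest. Rims1, a large RIM, went from 247, 272, 269, 281 and 326 to 249, 224, 230, 178 and 227 CPM and fell by 0.34 on the log2 scale (SE 0.10, adjusted p = 0.0321, edgeR), a call lost without vehicle peri-infarct replicate 3, 4 or 5 or contralateral replicate 2, 3 or 5. Its call and that of Syt13 were also lost when the animal was a block in the fit (adjusted p = 0.0531 and 0.0625). The Syt13 call held in 2 of 10 fits that left out 1 library and in 3 of the 8 other alternatives. Rab3c, a vesicle GTPase, rose from 267, 265, 258, 431 and 298 CPM to 435, 484, 359, 451 and 483 (0.53 ± 0.14, adjusted p = 0.0233, edgeR). Its groups overlapped through contralateral replicate 4, and the call was lost without peri-infarct replicate 4 or contralateral replicate 2, 3 or 5. Syn2, another synapsin, had 352, 423, 408, 574 and 413 against 582, 628, 468, 554 and 595 CPM, with contralateral replicate 4 above 2 peri-infarct libraries (0.37 ± 0.12, adjusted p = 0.0543, edgeR). It was called without peri-infarct replicate 3 or contralateral replicate 4. Without contralateral replicate 3 or 5, 7 members were called in either direction (13.6% and 12.5% of all genes, against 20.2% with all 10 libraries).

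In HPBCD-treated mice most of the machinery was lower in the peri-infarct region. Of 45 members 35 fell and 2 rose (24.3% of the 16047 genes tested fell and 30.3% rose, by edgeR), and the median was -0.76 (all genes, 0.03). For 31 of them the lower group did not overlap the other, against 18.3% of all genes. All 10 SNAREs, complexins and recycling factors fell (median -0.92), as did 7 of 9 active zone genes (-0.88) and 9 of 13 vesicle membrane genes (-0.73). In the group of synaptotagmins and Doc2b 6 of 8 fell (-0.70), and 3 of 5 endocytosis genes did (-0.83). The members that did not pass the test were Syn2, Syn3, Rab3c, Syt11, Unc13c, Erc2, Amph and Synj1, with log2 fold changes from -0.49 to 0.51. With the animal as a block, Amph was called lower (-0.55, adjusted p = 0.0484) and Unc13c higher (0.53, 0.0155).

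The same 3 genes had the most negative values as in vehicle-treated mice. Vamp1 was at 211, 209, 194, 222 and 220 CPM contralaterally and 30.9, 47.7, 28.6, 23.1 and 47.2 in the peri-infarct region, 16.9% of the contralateral level (-2.57 ± 0.19, adjusted p = 8.48e-07, edgeR). Rims3 had 311, 380, 382, 405 and 401 against 112, 55.4, 93.9, 57.0 and 141 CPM, a fall to 24.4% (-2.04 ± 0.23, adjusted p = 1.13e-05, edgeR). For Snap25 the values were 6040, 5360, 5330, 5700 and 5960 against 1700, 1960, 1330, 1030 and 1870 CPM, a fall to 27.9% (-1.84 ± 0.18, adjusted p = 3.34e-06, edgeR). None of the 3 had overlapping groups, and peri-infarct replicate 4 was the lowest library for Vamp1 and Snap25. Cplx1 (34.1% of contralateral, adjusted p = 1.4e-06), Stx1a, the partner SNARE of Snap25 (36.6%, 3.79e-05), Rph3a, a Rab3 effector (37.3%, 1.47e-06), and Rims1 (39.1%, 1.65e-05) came next, all by edgeR.

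Syn1, Syp, Syt1 and Dnm1 fell here. Syn1 went from 640, 751, 673, 653 and 575 to 432, 424, 328, 212 and 356 CPM (-0.91 ± 0.17, adjusted p = 0.000711, edgeR). Syp had 670, 622, 549, 634 and 565 against 425, 462, 302, 182 and 328 CPM (-0.83 ± 0.21, adjusted p = 0.00421, edgeR). Syt1 had 1750, 2030, 1790, 1920 and 1620 against 1010, 1260, 771, 515 and 857 CPM (-1.04 ± 0.20, adjusted p = 0.000815, edgeR). Dnm1 had 1330, 1530, 1410, 1360 and 1190 against 883, 1100, 612, 340 and 709 CPM (-0.90 ± 0.25, adjusted p = 0.00797, edgeR). In each of these 4 genes all peri-infarct libraries were below all contralateral ones and replicate 4 was the lowest. Per mouse, 37 to 42 of 45 members were lower in the peri-infarct library of the HPBCD-treated mice. Among vehicle-treated mice the number ran from 17 to 41.

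**Figure D2:**
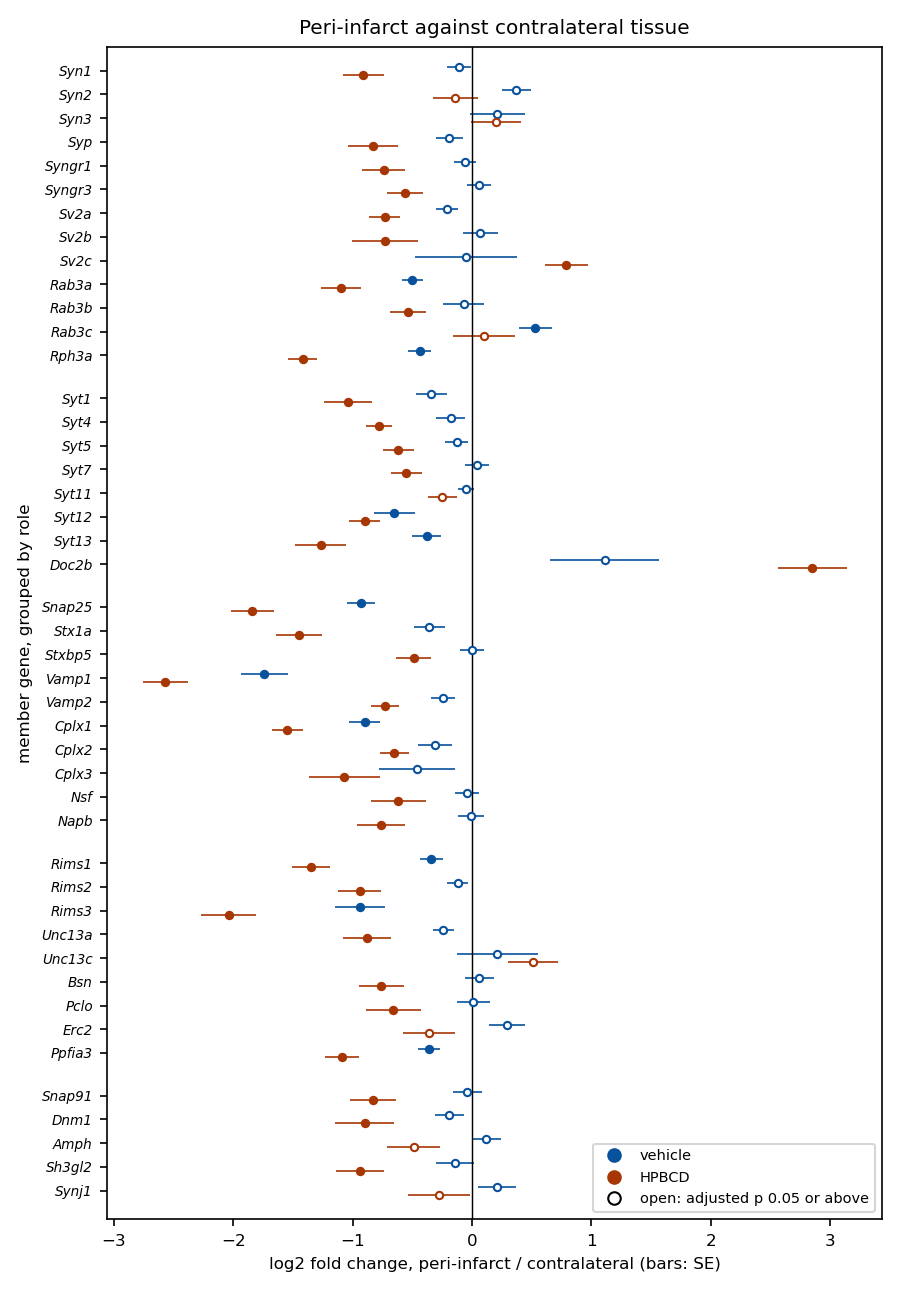
Points are log2 fold changes of peri-infarct over contralateral tissue with SE bars, for vehicle (blue) and HPBCD (brown); open points did not reach an adjusted p under 0.05. Most brown points lie left of the blue ones, with Vamp1 furthest left in both (-1.74 and -2.57) and Doc2b furthest right (1.11 and 2.85).

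Some pairs of paralogs differed in how far they changed. For 9 pairs, chosen after the values were seen, the log2 ratio within each library is given as a description, with no test. Vamp1 relative to Vamp2, the most widespread vesicle SNARE, was -3.13 ± 0.29 (SD, n = 5) contralaterally and -4.63 ± 0.22 in the peri-infarct region of vehicle-treated mice. In HPBCD-treated mice it was -2.64 ± 0.09 and -4.52 ± 0.36. The difference between regions for Cplx1 relative to Cplx2 was -0.56 and -0.90, for Rab3a relative to Rab3c -1.06 and -1.11, and for Syn1 relative to Syn2 -0.49 and -0.74 in vehicle-treated and HPBCD-treated mice. For these 4 pairs the peri-infarct and contralateral libraries did not overlap in either treatment.
The ratios of the other 5 pairs overlapped between regions, except Rims1 relative to Rims2 in HPBCD-treated mice. Rims1 relative to Rims2 differed by -0.23 and -0.44, Rims3 relative to Rims1 by -0.66 and -0.75, Unc13a relative to Unc13c by -0.45 and -1.48, Sv2a relative to Sv2b by -0.29 and 0.12, and Syngr1 relative to Syngr3 by -0.13 and -0.17. Between treatments, Syn1 relative to Syn2 was lower with HPBCD in the peri-infarct region (-0.15) and Vamp1 relative to Vamp2 higher with HPBCD contralaterally (0.49), both without overlap, and the other ratios overlapped. Among these, in the peri-infarct region Vamp1 relative to Vamp2 differed by 0.11 and Cplx1 relative to Cplx2 by 0.01.

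**Figure D3:**
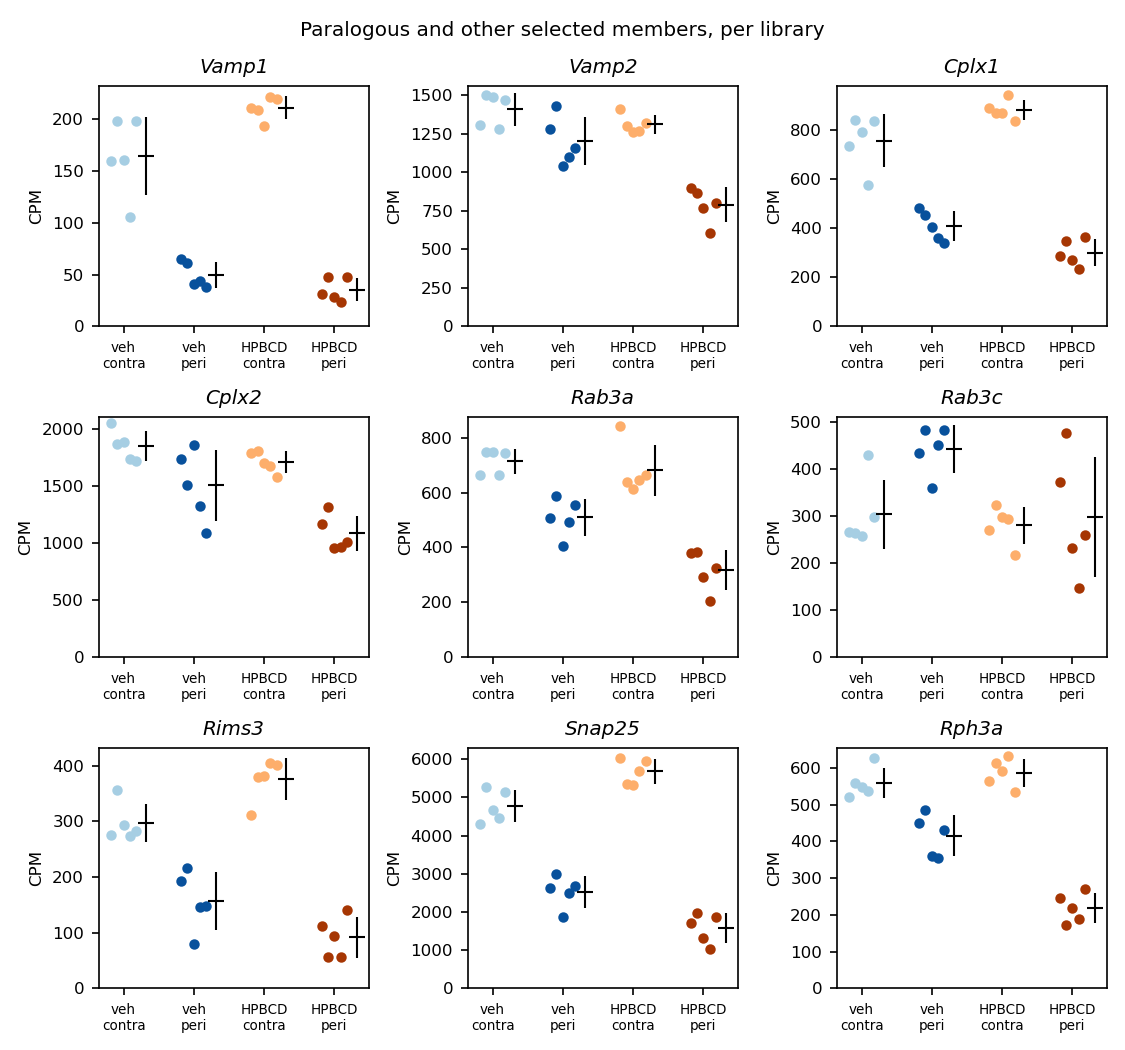
CPM of 9 members in every library, with points for the 5 libraries of each group and a black mark for mean ± SD; each vertical axis starts at 0. Vamp1, Cplx1 and Rab3a drop in both peri-infarct groups. Vamp2 (-0.24 and -0.73) and Cplx2 (-0.31 and -0.65 on the log2 scale) passed the test in HPBCD-treated mice but not in vehicle-treated mice, and Rab3c is higher in the vehicle peri-infarct group than in most vehicle contralateral libraries.

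Markers of parvalbumin interneurons, a fast-spiking cell type, moved beside Vamp1 and Cplx1. The summed level of Pvalb, Kcnc1, Kcnc2 and Tac1 was 355 to 466 CPM in vehicle contralateral and 222 to 281 in vehicle peri-infarct libraries, and 474 to 540 and 142 to 237 in the HPBCD groups. Pvalb fell by 2.26 (adjusted p = 0.00235) and 2.99 (1.37e-06) on the log2 scale by edgeR. Vehicle contralateral replicate 4 was lowest of its group for Vamp1 (106 CPM), Cplx1 (576 CPM) and this sum (355 CPM). Tac1, which is also made in the striatum, was 2.42 higher in the HPBCD peri-infarct libraries (adjusted p = 1.82e-05, edgeR). The part of these cells in the Vamp1 result was not tested.

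General neuronal markers moved with the members too. Of 14 pan-neuronal genes that are not members, 7 fell in vehicle-treated and 14 in HPBCD-treated mice, with medians of -0.30 and -0.94. Their summed level was 8800 to 9600 CPM in vehicle contralateral, 6400 to 7870 in vehicle peri-infarct, 9090 to 10500 in HPBCD contralateral and 3700 to 5610 in HPBCD peri-infarct libraries, and none was at 0. The mean log2 level of the members, relative to vehicle contralateral, was -0.14 ± 0.15 (SD, n = 5) in vehicle peri-infarct and -0.73 ± 0.33 in HPBCD peri-infarct libraries, and that of the pan-neuronal genes -0.38 ± 0.14 and -0.94 ± 0.28. The members therefore lay 0.24 ± 0.04 and 0.21 ± 0.07 above the pan-neuronal genes in the 2 peri-infarct groups. In HPBCD contralateral libraries this difference was -0.07 ± 0.12, so the values depend on vehicle contralateral tissue as the reference. Microglial and macrophage markers rose (9 and 10 of 10 genes), as did reactive astrocyte markers (8 of 8 in both treatments). Of 7 oligodendrocyte markers 0 rose in vehicle-treated mice by edgeR (0 at an unadjusted p under 0.05), and 7 rose in HPBCD-treated mice. The interaction was called for 3 of these 7 (median 1.06), and for 0 to 7 when 1 library was left out. Fibroblast and meningeal markers rose in 1 and 6 of 6 genes (medians 1.12 and 3.87) and ependymal ones in 2 of 4 tested and 5 of 5 (1.19 and 3.54) in vehicle-treated and HPBCD-treated mice, and their interaction was positive for 4 of 6 and 4 of 5. Of 5 glutamatergic markers 0 fell in vehicle-treated mice by edgeR (0 at an unadjusted p under 0.05) and 4 in HPBCD-treated mice (medians -0.32 and -1.06), with a negative interaction for 2, and of 5 GABAergic markers 1 and 4 fell. How far these cell types account for the members' values was not tested.

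The second question was how treatment related to the machinery. Its directions rest on the treatment labels and would turn round if the peri-infarct labels were exchanged. In peri-infarct tissue 22 members were lower in the libraries labelled HPBCD than in those labelled vehicle and none was higher, when 9.00% of the 16224 genes tested were lower and 12.4% higher by edgeR. The median was -0.60 (all genes, 0.01), and 42 of 45 members had a negative value. In 11 of them the groups did not overlap, against 5.98% of all genes. Vesicle membrane genes made up 9 of the 22, with 4 each from the SNAREs and complexins, the synaptotagmins and the active zone, and 1 from endocytosis. The count varied with the libraries used, and so did the share of all genes called in either direction, which was 21.4% with all 10 libraries. Without HPBCD peri-infarct replicate 3 the count was 6 (5.03% of all genes) and without replicate 2 it was 35 (32.5%). Without vehicle peri-infarct replicate 1, 2 or 5 it was 9, 10 and 13 (8.75%, 7.93% and 13.2%). With all 4 groups in 1 fit it was 35 (29.7%).

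Rph3a (chr5:120940499-121010092, minus strand), the Rab3 effector rabphilin, was among the 3 most negative. Its vehicle peri-infarct libraries held 451, 484, 360, 354 and 430 CPM and the HPBCD ones 245, 173, 218, 188 and 270, without overlap (-0.93 ± 0.14, adjusted p = 0.0128, edgeR). Stx1a (chr5:135023482-135051100, plus strand) had 203, 259, 174, 215 and 257 against 166, 87.6, 110, 68.2 and 127 CPM, a level 50.2% of that with vehicle (-0.99 ± 0.21, adjusted p = 0.0158, edgeR). Its highest HPBCD library, replicate 1, lay just below the lowest vehicle library. Cplx3, a complexin of restricted expression, had the most negative estimate but spread widely, at 23.2, 30.3, 10.4, 20.9 and 43.8 against 18.5, 4.87, 18.5, 8.06 and 11.3 CPM (-1.08 ± 0.40, adjusted p = 0.0756, edgeR). It was called without vehicle peri-infarct replicate 3 (adjusted p = 0.0268).

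Among the genes followed in every comparison, Syn1 was lower with HPBCD (610, 677, 504, 598 and 645 against 432, 424, 328, 212 and 356 CPM). The groups did not overlap (-0.80 ± 0.18, adjusted p = 0.0171, edgeR), though without HPBCD replicate 3 the adjusted p was 0.0509. Rims1 was lower as well (249, 224, 230, 178 and 227 against 133, 181, 119, 105 and 134 CPM), with HPBCD replicate 2 just above vehicle replicate 4 (-0.73 ± 0.15, adjusted p = 0.0141, edgeR). Snap25 fell by 0.68 on the log2 scale (SE 0.19, adjusted p = 0.0329, edgeR), and the call was lost without vehicle replicate 1, 2, 4 or 5 or HPBCD replicate 3 or 4. Syp fell by 0.70 (SE 0.22, adjusted p = 0.0451, edgeR), and its call was lost without vehicle replicate 1, 2, 4 or 5 or HPBCD replicate 3, 4 or 5. Syt1 (-0.59 ± 0.22, adjusted p = 0.0722) and Dnm1 (-0.66 ± 0.26, 0.0896) did not pass by edgeR. Both passed without HPBCD replicate 2, and Syt1 also without vehicle replicate 3, with lowest adjusted p of 0.0172 for Syt1 and 0.0211 for Dnm1. Vamp1, which fell furthest between regions, had -0.48 ± 0.23 (adjusted p = 0.137, edgeR) between treatments.

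Beside these values, 11 of 14 pan-neuronal markers were lower with HPBCD in the peri-infarct region (median -0.54), as were 2 of 5 glutamatergic markers, whose sum was 1360 to 1950 CPM with vehicle and 425 to 1610 with HPBCD, and 2 of 5 GABAergic ones (667 to 884 against 541 to 726 CPM). All 6 fibroblast and meningeal markers were higher (106 to 372 against 543 to 1280 CPM), as were 3 of 5 ependymal (18.4 to 47.7 against 70.4 to 139 CPM), 2 of 4 choroid plexus (5.84 to 75.4 against 26.0 to 677 CPM) and 5 of 8 reactive astrocyte markers (746 to 3740 against 3250 to 6680 CPM). Of 7 oligodendrocyte markers 2 were called higher (median 0.61; 6120 to 14800 against 12700 to 19500 CPM), of 10 microglial and macrophage markers 1 (median 0.69; 836 to 2900 against 1510 to 3810 CPM) and of 6 astrocyte markers 1 (median 0.15). The oligodendrocyte count was 7 without vehicle replicate 5, and 0 without vehicle replicate 1, 2 or 4 or HPBCD replicate 3, 4 or 5. Of 4 parvalbumin interneuron and 8 striatum markers 0 were called by edgeR (2 and 0 at an unadjusted p under 0.05). None of these markers was at 0 in all libraries. The part of tissue composition in the treatment result was not tested.

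In contralateral tissue 0 of 45 members were called in either direction by edgeR, as were 0 of all 15469 genes (0% lower and 0% higher). At an unadjusted p under 0.05 there were 8 members, against 1224 genes of all tested. DESeq2 and limma voom also called 0 members. The median was 0.05 (all genes, -0.01), and the smallest adjusted p was 0.483, for Rims3. In 0 members were all HPBCD libraries below all vehicle ones (0.549% of all genes). For Snap25 every HPBCD library, at 5330 to 6040 CPM, was above every vehicle one, at 4300 to 5270 (0.24 ± 0.08, adjusted p = 0.503, edgeR), an arrangement seen for 0.957% of all genes. The most positive values were Vamp1 (0.35 ± 0.14, adjusted p = 0.557), Rims3 (0.33 ± 0.09) and Rims1 (0.30 ± 0.10, 0.555), and the most negative Doc2b (-1.21 ± 0.44, 0.555), Sv2c (-0.49 ± 0.38, 0.776) and Cplx3 (-0.46 ± 0.21, 0.621), all by edgeR and with overlapping groups. Syp (-0.04 ± 0.08), Syt1 (0.12 ± 0.09) and Dnm1 (0.06 ± 0.09) lay close to 0. The 95% interval for Syn1 ran from -0.20 to 0.22 on the log2 scale.

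**Figure D4:**
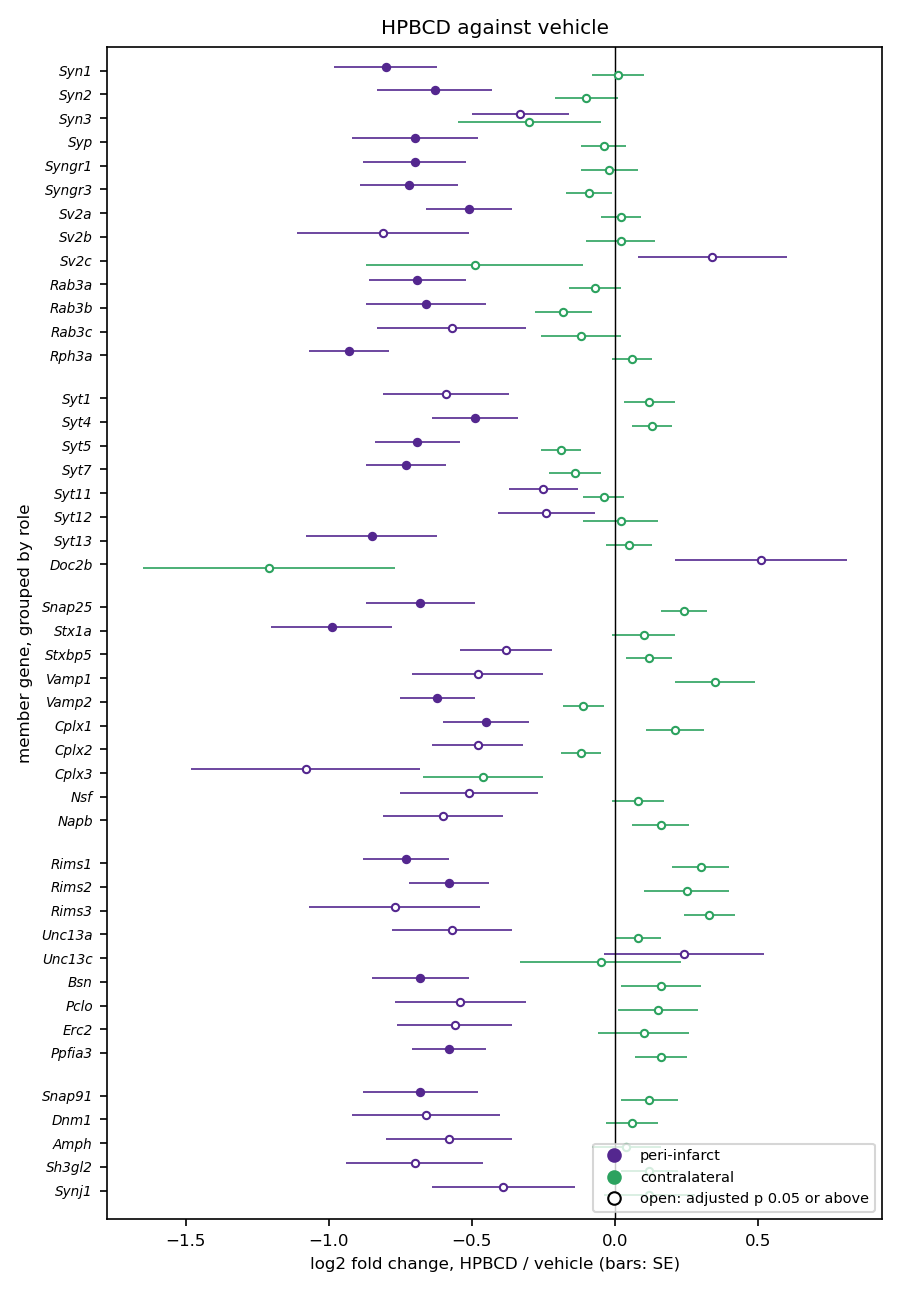
Points are log2 fold changes of HPBCD over vehicle with SE bars, in peri-infarct (purple) and contralateral (green) tissue; open points did not reach an adjusted p under 0.05. The purple points center on -0.60 and the green ones on 0.05, with Doc2b highest in peri-infarct (0.51) and lowest in contralateral tissue (-1.21).

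The difference between the 2 region effects was tested as an interaction. The region effect was more negative in HPBCD-treated mice for 19 of 45 members and more positive for none, when 4.38% of the 16758 genes tested had a negative and 5.03% a positive interaction by edgeR. The median was -0.66 (all genes, 0.01). Rph3a had the smallest adjusted p (-1.0 ± 0.16, adjusted p = 0.0104, edgeR), which means that the ratio between regions with HPBCD was 50.1% of that with vehicle. Rims3 (-1.11 ± 0.33, 0.0432), Stx1a (-1.10 ± 0.25, 0.0184), Rims1 (-1.03 ± 0.18, 0.0139), Snap25 (-0.93 ± 0.21, 0.0185) and Syn1 (-0.81 ± 0.20, 0.0244) were called. Besides Doc2b, described further on, the most positive values were those of Sv2c (0.83 ± 0.51, 0.285) and Unc13c (0.29 ± 0.43, 0.689). Without vehicle contralateral replicate 1 these were 0.13 and -0.06. The values of Syp (-0.66 ± 0.24, 0.081), Syt1 (-0.72 ± 0.24, 0.0651) and Dnm1 (-0.73 ± 0.29, 0.104) did not pass. Without HPBCD peri-infarct replicate 2 all 3 were called, and Syp and Syt1 also without replicate 3 of the vehicle group. Beside the members, all 14 pan-neuronal genes had a negative interaction value and 9 were called (median -0.59). Of 8 reactive astrocyte markers 4 were called with a positive interaction (median 1.43).
The 5 active zone genes called were Rims1, Rims2, Rims3, Bsn and Ppfia3, the 5 SNARE group genes Snap25, Stx1a, Vamp2, Cplx1 and Napb, and the vesicle membrane genes Syn1, Syngr1, Syngr3, Sv2a and Rph3a. Syt4, Syt7 and Syt13 among the synaptotagmins and Snap91 in endocytosis completed the 19.

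The interaction count rested on single libraries as well, and the share of all genes called, 9.41% with all libraries, moved with it. Without vehicle peri-infarct replicate 1, 2 or 5 the count was 8, 6 and 11 (4.85%, 3.12% and 6.61% of all genes), and without vehicle contralateral replicate 1 or 3 it was 9 and 10 (5.44% and 5.05%). Leaving out HPBCD peri-infarct replicate 2 gave 33 (18.4%) and replicate 3 gave 5 (3.29%), and leaving out HPBCD contralateral replicate 2 or 4 gave 8 and 6 (4.22% and 4.15%). The Rims3 call held in 6 of the 20 fits that left out 1 library: those without vehicle peri-infarct 3, vehicle contralateral 2, HPBCD peri-infarct 1, 2 or 5, and HPBCD contralateral 1. Stx1a, Rims1 and Snap25 were called in all 20, and Syn1 in all but those lacking replicate 2 of the vehicle peri-infarct group or replicate 3 of the HPBCD one. With the animal as a block 20 members were called (10.9% of all genes). Syngr1 (adjusted p = 0.0634) and Rims2 (0.0544) lost their call, and Vamp1 (-0.89, 0.043), Rab3a (-0.63, 0.0364) and Unc13a (-0.72, 0.0386) gained one.

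Doc2b, Sv2c and Unc13c had the 3 most positive values between regions in HPBCD-treated mice, where Doc2b and Sv2c rose and Unc13c did not pass the test. Doc2b (chr11:75768966-75796049, minus strand), a calcium sensor with high calcium affinity, held 5.49, 7.97, 8.89, 7.84 and 6.82 CPM in HPBCD contralateral libraries and 40.5, 100, 38.1, 42.7 and 42.6 in HPBCD peri-infarct libraries. The groups did not overlap, and the level was 7.23 times as high (2.85 ± 0.29, adjusted p = 5.36e-06, edgeR). In vehicle-treated mice it had 44.5, 6.97, 7.82, 15.7 and 9.89 CPM contralaterally and 51.5, 32.9, 43.6, 33.9 and 23.0 in the peri-infarct region (1.11 ± 0.46, adjusted p = 0.111, edgeR). That group overlapped through contralateral replicate 1 alone, and without it the difference was 1.87 with an adjusted p of 0.00398. With the animal as a block Doc2b was also called in vehicle-treated mice (1.40, adjusted p = 0.0212). Its interaction of 1.72 ± 0.58 had an adjusted p of 0.0628 and was called without vehicle contralateral replicate 2 (0.0474); without contralateral replicate 1 it was 0.97 (0.145).

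Sv2c, the SV2 form most abundant in the basal ganglia, rose in HPBCD-treated mice from 27.3, 32.9, 29.6, 31.2 and 23.6 to 59.5, 26.9, 52.5, 52.3 and 59.2 CPM (0.79 ± 0.18, adjusted p = 0.0021, edgeR). Peri-infarct replicate 2 alone remained at the contralateral level. In vehicle-treated mice Sv2c was at 102, 23.0, 22.3, 25.2 and 28.3 against 42.5, 37.3, 51.7, 46.1 and 18.9 CPM, with contralateral replicate 1 above every other library of the study (-0.05 ± 0.43, adjusted p = 0.957, edgeR). Unc13c, a Munc13 priming factor, had 12.9, 21.7, 30.1, 26.8 and 18.9 against 26.7, 21.1, 35.4, 38.2 and 35.5 CPM in HPBCD-treated mice (0.51 ± 0.21, adjusted p = 0.0593, edgeR). It was called without HPBCD peri-infarct replicate 2 or contralateral replicate 3, with a lowest adjusted p of 0.0185. Between treatments in the peri-infarct region the values were 0.51 ± 0.30 for Doc2b, 0.34 ± 0.26 for Sv2c and 0.24 ± 0.28 for Unc13c (adjusted p = 0.22, 0.351 and 0.546, edgeR). Single libraries moved them without a call: Doc2b was 0.13 without HPBCD replicate 2, Sv2c was 0.17 and Unc13c 0.10 without vehicle replicate 5, and Unc13c was 0.55 without vehicle replicate 3.

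Markers of the striatum, which lies beneath the cortex, were high in many of the libraries in which these 3 genes were high. The summed level of the 8 markers was 231 to 279 CPM in HPBCD contralateral, 767 to 2220 in HPBCD peri-infarct and 372 to 2160 in vehicle peri-infarct libraries. It was 3800 CPM in vehicle contralateral replicate 1, the library with the highest Sv2c of the study and the highest Doc2b and Unc13c of its group. All 8 markers were higher in the peri-infarct region of HPBCD-treated mice (median 2.81) and 0 in vehicle-treated mice by edgeR (median 0.36; 0 at an unadjusted p under 0.05). Vehicle contralateral replicate 1 decided the latter count: the other 4 contralateral libraries, at 220 to 304 CPM, lay below every vehicle peri-infarct one, and without it all 8 were higher (median 2.37, adjusted p from 0.00323 to 0.0173, edgeR). The interaction was called for 0 of the 8 (8 at an unadjusted p under 0.05), with a median of 2.5, or 0.43 without that library. It was called for 3 without vehicle peri-infarct replicate 3 and for 4 without HPBCD peri-infarct replicate 2. Without vehicle contralateral replicate 4 or 5 it was called for 4 and 2. In some libraries the striatum markers and the 3 genes were not high together. Doc2b was the highest of the study (100 CPM) in HPBCD peri-infarct replicate 2, the library with the lowest striatum sum of its group (767 CPM). Unc13c was at 30.1 and 26.8 CPM in HPBCD contralateral replicates 3 and 4, with striatum sums of 231 and 279 CPM, and at 26.7 CPM in HPBCD peri-infarct replicate 1, with 1850 CPM. The part of striatal tissue in these values was not tested. Without vehicle contralateral replicate 1 the contralateral treatment value was -0.46 for Doc2b (with it, -1.21) and 0.22 for Sv2c (with it, -0.49), neither called by edgeR.

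**Figure D5:**
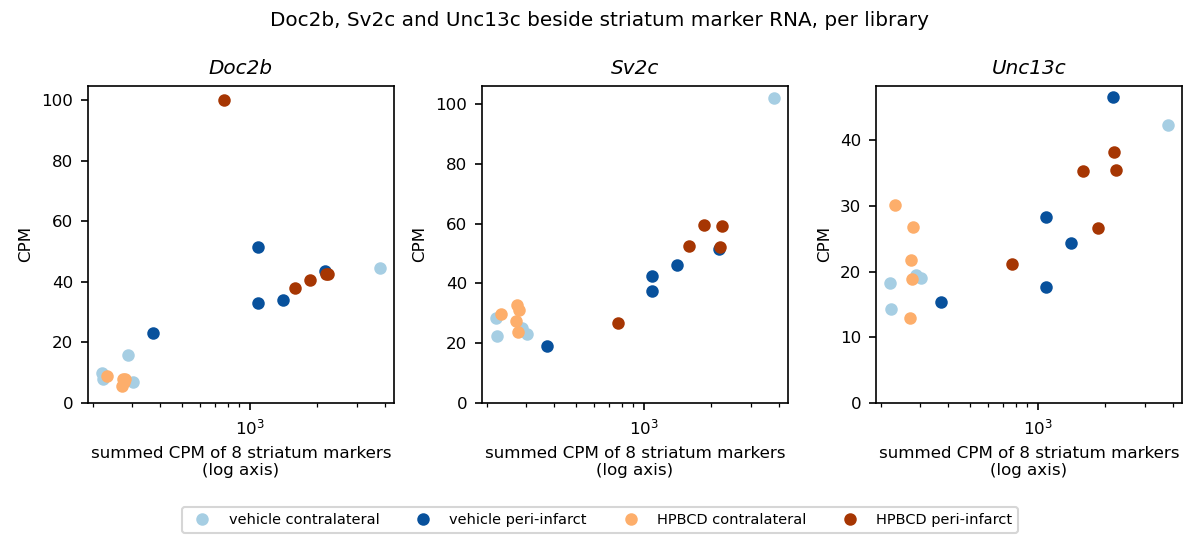
CPM of Doc2b, Sv2c and Unc13c (vertical axes from 0) against the summed CPM of 8 striatum markers (log axis), 1 point per library, colored by group. Vehicle contralateral replicate 1 is the lone pale blue point at 3800 CPM, and the Doc2b point at 100 CPM is HPBCD peri-infarct replicate 2.

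The rest of the release machinery was read from a list of 61 further genes, of which 58 had enough counts in each comparison. In vehicle-treated mice 9 were lower and 7 higher in the peri-infarct region (median -0.02; 9.70% and 10.5% of all genes), and in HPBCD-treated mice 30 were lower and 15 higher (median -0.39; 24.3% and 30.3% of all genes). Syt2, a fast calcium sensor close to Syt1, fell furthest in both (-2.07 ± 0.25, adjusted p = 0.00146, and -2.51 ± 0.15, 2.98e-07, edgeR), followed by Sncb, the presynaptic protein β-synuclein (-0.57 ± 0.12, 0.00966, and -1.47 ± 0.19, 3.23e-05). Syt10 was the most increased in both (1.47 ± 0.33, 0.0114, and 1.71 ± 0.37, 0.00158). Between treatments in the peri-infarct region 20 of the 58 were lower with HPBCD and 6 higher (median -0.28; 9.00% and 12.4% of all genes), with Doc2a lowest (-1.21 ± 0.29, adjusted p = 0.0208) and Syngr2, a synaptogyrin found widely outside neurons, highest (0.71 ± 0.18, 0.0249, edgeR). Contralaterally 0 were called by edgeR (7 at an unadjusted p under 0.05), and 12 had a negative and 4 a positive interaction (4.38% and 5.03% of all genes).

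Exons of 16 members overlap a gene on the opposite strand, by at least 10% of exon length in Syn3 (with Timp3), Syp, Syt4 and Syt12. The kit kept strand, but the counting setting is not given in the sources used here, so reads of such pairs may not be separated. Bsn overlaps a gene on its own strand by 57 bases.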

How the data were processed

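The authors sequenced stranded mRNA libraries (75 bp paired-end) and, per the labels and the study's methods, used bcl2fastq 2.19, Trimmomatic 0.32, STAR 2.5.2b on GRCm38 and htseq-count; the counter's version, annotation release and strand setting are not given in the sources used here. The deposited values were raw counts per gene, 1 table per library. Rows that name no gene held 25.1% to 40.1% of the counted reads and stayed out. Gene symbols came from GENCODE M21, which matched 45229 of 46078 identifiers. The 45 members, gene lists and tests were chosen with earlier results of these data known.

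Counts were tested with edgeR 4.0.16 (quasi-likelihood, TMM factors, filterByExpr) under R 4.3.3, on the 10 libraries of each comparison or, for the interaction, on all 20, with Benjamini-Hochberg adjustment over all genes tested. Log2 CPM used a prior count of 2. The scripts were tested on simulated counts in which 200 genes were changed 2-fold. The edgeR test recovered 58% (interaction) to 82% (contralateral treatment comparison) of these. Of its calls 2.52% to 8.81% were false, the most for the regions of HPBCD-treated mice. Of the DESeq2 calls 13.2% to 19.6% were false. The members named in each comparison were the 3 most negative and 3 most positive members at 5 CPM or more, and Syn1, Syp, Syt1, Snap25, Rims1 and Dnm1; other members are named where a count or pattern includes them. Alternatives were DESeq2 1.42.0, limma 3.58.1 voom with sample weights, RLE and upper-quartile factors, no filter, at least 10 counts in every library, all 4 groups in 1 fit, a replicate block and each library left out. Both regions of a mouse carry 1 identifier in the deposited table names and the same replicate number in the labels, so the number pairs regions within a treatment. The correlation of paired deviations averaged 0.087 over 10 pairs (-0.11 to 0.30, with 4 over 0.1). Between treatments the number is only a name.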

Additional observations from a re-analysis of the deposited data

Results flagged for a closer look

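In 19 members the region effect differed between treatments by the interaction term of edgeR's quasi-likelihood test. The log2 differences (HPBCD minus vehicle) were -0.81 for Syn1, -0.69 for Syngr1, -0.64 for Syngr3, -0.62 for Syt4, -0.60 for Syt7, -0.91 for Syt13, -0.54 for Sv2a, -0.93 for Snap25, -0.80 for Snap91 and -1.10 for Stx1a. They were -0.51 for Vamp2, -0.67 for Cplx1, -1.03 for Rims1, -0.84 for Rims2, -1.11 for Rims3, -1.0 for Rph3a, -0.84 for Bsn, -0.77 for Napb and -0.75 for Ppfia3. All 19 were negative.

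In 16 of 180 groups of 5 libraries 1 library stood apart from the other 4 by Dixon's test, and chance gives about 9 (1 in 20). Vehicle contralateral replicate 1 accounted for 5: it was the highest for Sv2c (102 CPM), Unc13c (42.3 CPM) and Doc2b (44.5 CPM) and the lowest for Syp (534 CPM) and Stx1a (208 CPM). HPBCD contralateral replicate 1 accounted for 4, as the highest for Syt5 (254 CPM), Rab3a (843 CPM) and Rab3b (61.5 CPM) and the lowest for Rims3 (311 CPM). Vehicle contralateral replicate 4 was the highest for Rab3c (431 CPM) and Erc2 (189 CPM), replicate 2 for Rims3 (356 CPM) and replicate 5 for Cplx3 (57.7 CPM). In the HPBCD peri-infarct group, replicate 2 was the lowest for Sv2c (26.9 CPM) and the highest for Doc2b (100 CPM), and replicate 1 was the highest for Syn3 (6.73 CPM). No vehicle peri-infarct library stood apart.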

How the results depend on the processing

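The members' median kept its sign under all alternatives and moved by less than 1 SD of the members' mean log2 level between libraries, pooled over the groups of each comparison (0.10 to 0.26). Shares in parentheses are those of all genes called in either direction. The number of members called between regions in vehicle-treated mice was 20 with limma voom (32.1%) and 11 in the main analysis (20.2%), and ran from 7 to 13 when 1 library was left out (12.5% to 24.4%). In HPBCD-treated mice it stayed between 34 and 42 of 45, against 37 in the main analysis (54.6%; 33.1% with no filter and 49.7% to 58.8% otherwise). Between treatments in the peri-infarct region, where the main count was 22 (21.4%), limma voom and the fit of all 4 groups each gave 35 (37.1% and 29.7%), DESeq2 gave 33 (29.8%) and leaving out 1 library gave 6 to 35 (5.03% to 32.5%). There a replicate block, which pairs mice that share only a number, gave 34 (27%). For the interaction limma voom gave 36 (24.5%) against 19 (9.41%), and leaving out 1 library gave 5 to 33 (3.12% to 18.4%). With the animal as a replicate block the region counts were 10 and 39 (19.3% and 55.2%) and the interaction 20 (10.9%). Contralateral tissue had 0 members called under every alternative. For the members named in each comparison, 406 of 436 estimates under the alternatives other than leaving out a library kept their side of the threshold, 26 gained a call, 4 lost one and none reversed. When 1 library was left out, 40 of 310 fits of called members lost the call and 15 of 360 fits of the others gained one. Depth limited no member.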
